A study of Homo sapiens with 2 samples.

Results

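The replication-dependent histone genes are small genes that lie together in a few clusters and supply the histones needed when DNA is copied. They were taken as the protein-coding genes with symbols beginning H1-, H2AC, H2BC, H3C or H4C on chromosome 1 and in the stretch of chromosome 6 from about 26 to 28 Mb, build hg38. This rule gave 66 of 19974 protein-coding genes. They comprised 6 genes of the linker histone H1, 16 of H2A, 17 of H2B, 13 of H3 and 14 of H4. On chromosome 6, 32 genes formed a first group from H1-1 to H4C8, and 21 formed a second group from H2BC11 to H2BC17 after a gap of 846782 bp. On chromosome 1, 11 genes lay in a group from H2BC18 to H2AC21, and a pair, H2AC25 and H2BC26, stood alone.

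Histones H2A, H2B, H3 and H4 form the core around which DNA is wrapped, and H1 binds the DNA between the cores. The clustered genes are transcribed mainly in S phase at a nuclear structure, the histone locus body, and most of their mRNAs end in a stem-loop in place of a poly(A) tail. Replication-independent histone genes elsewhere in the genome supply variants such as H3.3 and H2A.Z throughout the cell cycle.

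The assay was ATAC-seq, where accessible DNA is tagged by a transposase that carries sequencing adapters. Both libraries were made from WIBR3, a human embryonic stem cell line. hTBLC stands for totipotent blastomere-like cells, which the study derived by spliceosomal repression, and primed is the state in which such lines are usually grown. The labels give 50000 living cells as the input and name no agent, dose or time. With 1 library per state there was no replicate, and no test between the states was possible. The intervals of pileups and ratios below cover counting error only.

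The deposited lists held 299673 hTBLC peaks and 295753 primed peaks. From the fold enrichment and −log10 p of each peak, the pileup at its summit (how many reads or fragments overlap it) and the local background around it were solved. The most frequent lowest background was 1.96 in hTBLC and 1.79 in primed, and every ratio of pileups was divided by the quotient of these values, 1.09, as a measure of relative depth. Of 7 pluripotent stem cell markers, 6 had a peak in both libraries, and POU5F1 had one in primed alone, at a pileup of 37. All 8 fibroblast markers had a peak in both. Their pileups ran from 14 to 131 in hTBLC and from 15 to 90 in primed. The 6 stem cell markers with a peak in both ran from 81 to 118 in hTBLC and from 68 to 151 in primed. Past 1.5-fold, the stem cell marker L1TD1 had 97 in hTBLC and 151 in primed, a ratio of 0.59 (exact binomial 95% interval 0.45 to 0.76). The fibroblast marker TWIST2 had 131 in hTBLC and 65 in primed, a ratio of 1.84 (1.36 to 2.52). The fibroblast markers did not go one way. Of the 4 with a ratio, 2 were above 1 and 2 below, with a median of 0.88. COL1A1 was at 0.69 (0.50 to 0.96). All 3 stem cell markers with a ratio were below 1. The part of other cell types in the values below was not tested.

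The sequences in front of the histone genes carry elements that differ by histone type, shown here for genes whose peaks are described below. RefSeq promoters (GRCh38.p14, 250 bases before to 50 bases after the start site) were found for 61 of the 66 genes, all but H4C1, H4C3, H2AC12, H3C11 and H3C12. The letters GGTCCG, on either strand, were in 11 of 12 H4 promoters, or 91.7%, against 11.2% of all 27305 promoters of the table. They belong to the element bound by HINFP, an activator of H4 genes. The longer form CGGTCCG, which contains GGTCCG, was in 2 of the 12. The following stretches are the 60 bases before the start site, 5′ to 3′ on the gene's strand, with GGTCCG in capitals.
H4C5 (chr6:26204550-26204609, plus strand): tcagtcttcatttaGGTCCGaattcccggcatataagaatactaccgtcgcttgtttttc
H4C8 (chr6:26285535-26285594, minus strand): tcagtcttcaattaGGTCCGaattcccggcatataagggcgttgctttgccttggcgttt
H4C6 (chr6:26240333-26240392, plus strand): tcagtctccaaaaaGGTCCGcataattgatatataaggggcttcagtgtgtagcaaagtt
H4C7 (chr6:26246997-26247056, minus strand): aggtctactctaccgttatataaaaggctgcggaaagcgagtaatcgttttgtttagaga
H4C12 (chr6:27831561-27831620, minus strand): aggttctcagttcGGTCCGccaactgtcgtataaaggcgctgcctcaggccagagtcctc
H4C14 (chr1:149832597-149832656, plus strand): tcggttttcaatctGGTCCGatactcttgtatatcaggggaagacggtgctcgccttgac

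H4C7 was the H4 gene without GGTCCG in its promoter. H4C14 and H4C15 had the same 300 bases, and H4C11 and H4C12 differed at 5 of 300. Copies as close as these were also found at H2AC18 and H2AC19, with 0 mismatches in 299 aligned bases, and at H3C14 and H3C15, with 0 in 296. Whether reads could be placed uniquely at these copies was not tested, so the values at these 8 genes are uncertain.

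The H1 genes share a distinct element, AAACACA, known as the H1 box. It was in 6 of 6 H1 promoters on either strand, against 5.76% of all promoters. CCAAT, the site of the factor NF-Y, was in 52 of the 61 promoters, or 85.2%, against 35.7% of all promoters. It was in every H1, H2A, H2B and H3 promoter of the 61 and in 3 of 12 H4 promoters. The 140 bases before the start sites of H1-4, which was open in both libraries, and of H1-6, which had no peak in either, are given with AAACACA and CCAAT in capitals.
H1-4 (chr6:26156189-26156328, plus strand): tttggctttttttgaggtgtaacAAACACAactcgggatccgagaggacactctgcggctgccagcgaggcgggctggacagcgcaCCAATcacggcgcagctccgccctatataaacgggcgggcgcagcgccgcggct
H1-6 (chr6:26108136-26108275, minus strand): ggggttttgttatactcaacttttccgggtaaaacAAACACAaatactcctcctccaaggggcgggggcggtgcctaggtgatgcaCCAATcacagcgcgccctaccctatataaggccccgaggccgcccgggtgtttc

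The octamer ATTTGCAT, bound by POU2F1 (OCT1) and its relatives, was in 13 of 17 H2B promoters and 10 of 15 H2A promoters, against 1.80% of all promoters. The TATA box letters TATAAA were in 39 of the 61, or 63.9%, against 3264 of the 27305 promoters of the table. H2A and H2B genes often lie head to head, and 21 members had a head-to-head partner within 500 bp of their start site. They include H3C4, which is listed with the same start site as H2AC7. H2AC12, next to H2BC12, has no listed start site, so these genes could not be counted as a pair. The stretch between the start sites of a head-to-head pair serves both genes. It is given for the pairs with the highest ratios, read towards the H2B gene, together with the 160 bases before H2BC6, the gene with the highest ratio of all members. CCAAT and ATTTGCAT are in capitals in whichever direction they read, ATTGG and ATGCAAAT being their reverse complements.
H2BC6 (chr6:26183601-26183760, plus strand): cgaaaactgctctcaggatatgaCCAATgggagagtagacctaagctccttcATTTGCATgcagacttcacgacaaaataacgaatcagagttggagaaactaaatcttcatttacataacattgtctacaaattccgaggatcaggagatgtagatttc
H2AC15 to H2BC15 (chr6:27838376-27838568, plus strand): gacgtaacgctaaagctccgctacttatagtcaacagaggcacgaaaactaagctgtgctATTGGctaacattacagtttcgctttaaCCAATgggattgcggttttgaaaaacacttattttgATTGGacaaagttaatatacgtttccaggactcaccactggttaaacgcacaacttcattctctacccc
H2AC17 to H2BC17 (chr6:27893186-27893424, plus strand): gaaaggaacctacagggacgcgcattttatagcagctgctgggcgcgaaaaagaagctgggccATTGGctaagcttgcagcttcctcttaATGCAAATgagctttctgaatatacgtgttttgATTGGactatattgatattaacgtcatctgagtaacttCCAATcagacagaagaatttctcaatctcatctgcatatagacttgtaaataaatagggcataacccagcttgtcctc

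Most histone cluster genes were open in both states. Of the 66, 57 had a peak within 1 kb of the gene in both libraries (86.4%, Wilson 95% interval 76.1% to 92.7%), close to the 88% of all protein-coding genes. That interval treats the genes as independent, which they are not, since neighbours share peaks. None had a peak in hTBLC alone, against 1.48% of all genes, 2 had one in primed alone, against 1.88%, and 7 had none, against 8.66%. The share with a peak in both was 15 of 16 for H2A, 16 of 17 for H2B, 11 of 14 for H4, 10 of 13 for H3 and 5 of 6 for H1. All 21 genes of the second chromosome 6 group and all 21 genes with a head-to-head partner had a peak in both. Other protein-coding genes shorter than 1 kb had one in both for 94 of 465 genes, or 20.2%, against 49 of 58 histone genes of that length.

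The 9 genes without a peak in 1 or both libraries lay at 4 places. H4C14, H3C14, H2AC18 and H3C15 belong to the copied stretch of chromosome 1 and had none in either library. In the first chromosome 6 group, the neighbours H2BC3 and H3C3 stood between open genes, H2BC3 without a peak in hTBLC and at a pileup of 11 in primed, and H3C3 without one in either. Further along, H4C6 and H4C7 stood together, H4C6 without a peak in hTBLC and at a pileup of 42 in primed, 140 bp before its start site, and H4C7 without one in either. The remaining gene was H1-6, which encodes the testis-specific linker histone H1t. An absent peak means that the deposited list held none there. The lowest −log10 p in the lists was 2.83 in hTBLC and 2.0 in primed. Peak names ran to rank 300000 in hTBLC and 296005 in primed. Whether the hTBLC list was cut at that rank was not tested.

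**Figure D1:**
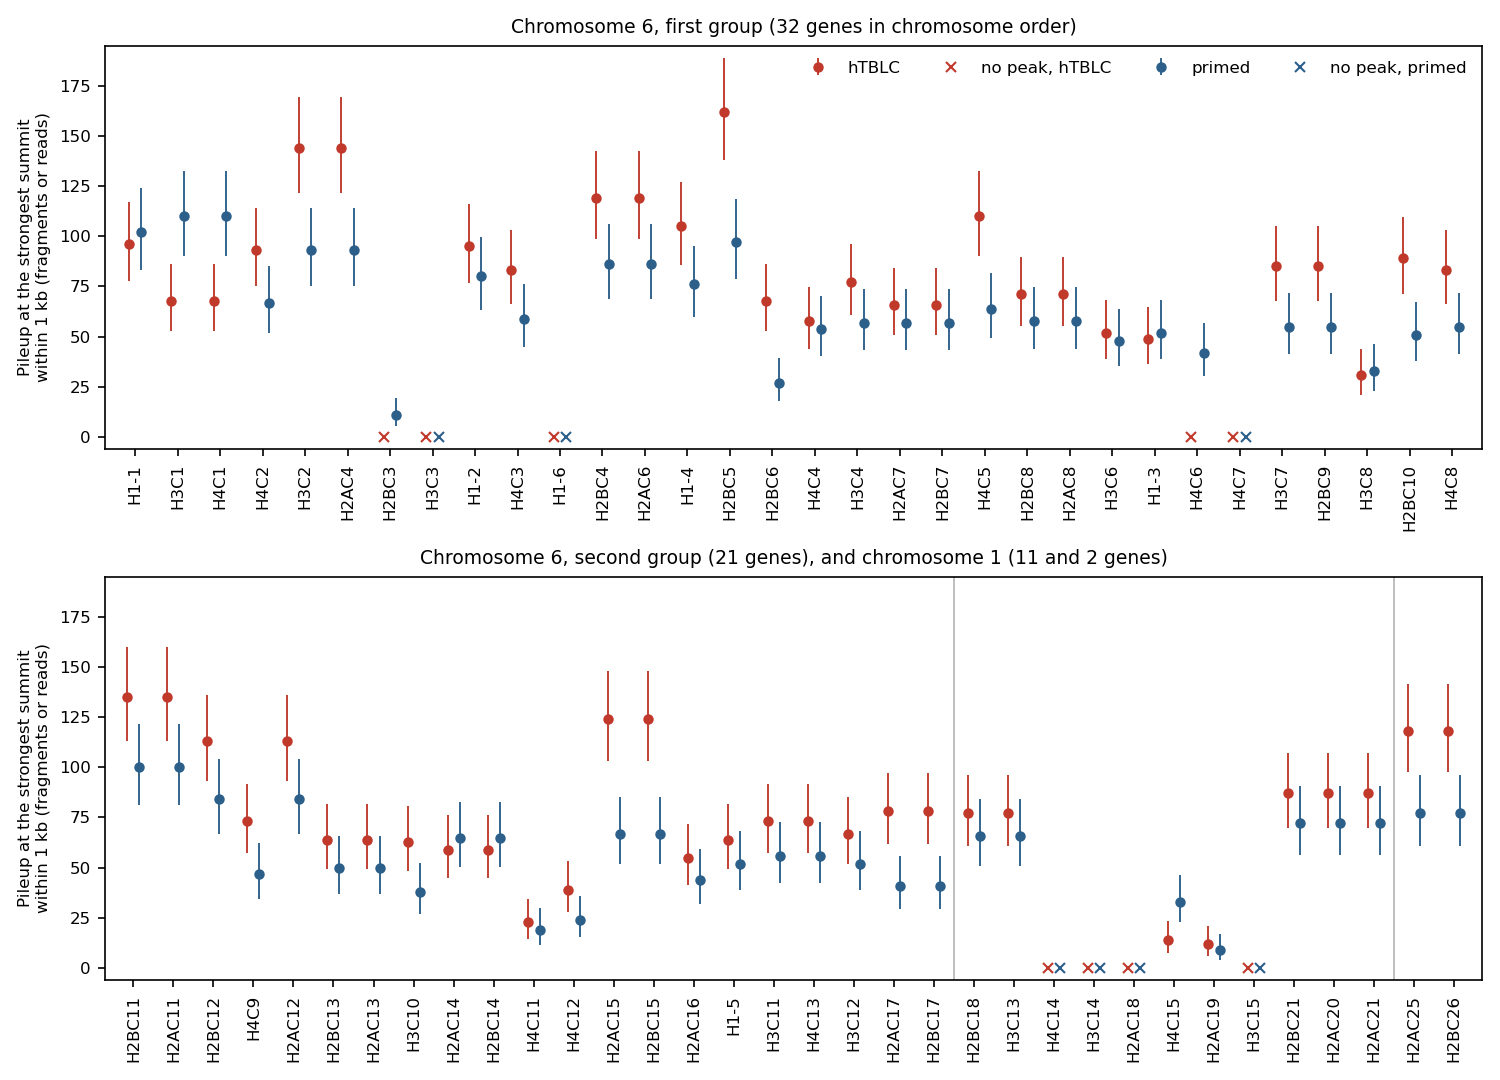
Pileup at the strongest summit within 1 kb of each of the 66 histone cluster genes (vertical axis, reads or fragments; bars, Poisson 95% intervals) in chromosome order, hTBLC left of primed; crosses mark genes without a peak. The hTBLC point lies above the primed point at most genes, and H3C1 and H4C1 show the opposite, with 68 in hTBLC and 110 in primed.

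Where the strongest peaks of the libraries overlapped, the histone genes were mostly somewhat more accessible in hTBLC. A ratio was available for 49 genes, which rest on 35 distinct pairs of peaks since neighbours share them. It was above 1 for 40 of the 49 (81.6%), against 50.8% of all 13787 genes with a ratio, and its median was 1.23, against 1.01 for all genes. At single genes the change was small beside the counting error. The interval lay above 1 for 12 genes, or 24.5%, where 17.1% of all genes did so, and below 1 for 2 genes, or 4.08%, where 15.6% did. A ratio of at least 1.5 was reached by 9 genes, or 18.4%, against 8.2% of all genes. A ratio of at most 0.667 was reached by 2 genes, or 4.08%, against 12.4% of all genes. These counts were not tested, and the 9 genes rest on 7 peak pairs. With stricter peaks (−log10 q of 10 or more) 5 of 42 genes reached 1.5, or 11.9%, against 7.9% of all genes. Without scaling for depth 16 of 49 did, or 32.7%, against 14.035% of all genes.

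H2B, a core histone paired with H2A in the nucleosome, held 5 of the 9 genes with a ratio of at least 1.5. H2BC6 had a pileup of 68 in hTBLC and 27 in primed, a scaled ratio of 2.30 (95% interval 1.45 to 3.74). Its strongest summit lay 91 bp before the start site in hTBLC and 297 bp after it in primed. At the start site itself, within 250 bp, the pileups were 68 in hTBLC and 22 in primed. H2BC6 was thus the one member whose main summit changed place by more than 250 bp among the 49. The pair H2AC17 and H2BC17 shared a summit of 78 in hTBLC and 41 in primed, a ratio of 1.74 (1.18 to 2.60). The pair H2AC15 and H2BC15 shared one of 124 in hTBLC and 67 in primed, a ratio of 1.69 (1.25 to 2.31). Both summits lay in the stretches between the start sites shown above.

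H2BC10 had 89 in hTBLC and 51 in primed, a ratio of 1.60 (1.12 to 2.30), with the summit 1 bp before the start site in hTBLC and 14 bp after it in primed. H2BC5 had the highest hTBLC pileup of any member, 162 in hTBLC and 97 in primed, a ratio of 1.53 (1.18 to 1.98). That summit was not at its promoter, since it lay past the far end of the long annotated gene, 13841 bp from its start site in hTBLC and 13817 bp in primed. At the start site of H2BC5 the pileups were 105 in hTBLC and 76 in primed, a ratio of 1.26 (0.93 to 1.72). The H2B gene with the lowest hTBLC pileup among those with a peak was H2BC14, whose summit, shared with H2AC14, had 59 in hTBLC and 65 in primed, a ratio of 0.83 (0.57 to 1.20).

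The median ratio was 1.25 over 14 H2B genes, of which 13 were above 1, and 1.23 over 13 H2A genes, of which 12 were above 1. Since head-to-head pairs share their summit, these 2 types are not independent. Among H2A genes, H2AC4 had the highest hTBLC pileup within 1 kb, 144 in hTBLC and 93 in primed, but that summit was 1419 bp from its start site and lay at the promoter of the neighbouring H3C2. At its own start site H2AC4 had 72 in hTBLC and 69 in primed, a ratio of 0.95 (0.68 to 1.35). H2AC19, one of the copied genes, had the lowest H2A values, 12 in hTBLC and 9 in primed. H2AC7 and H2BC7 shared a summit of 66 in hTBLC and 57 in primed, a ratio of 1.06 (0.73 to 1.54). The pair H2AC25 and H2BC26, alone on chromosome 1, shared one of 118 in hTBLC and 77 in primed, a ratio of 1.40 (1.04 to 1.89).

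H3 pairs with H4 within the nucleosome core. Among the H3 genes, H3C2 had the highest hTBLC pileup, 144 in hTBLC and 93 in primed, both 100 bp before its start site, a ratio of 1.42 (1.08 to 1.86). H3C10 had 63 in hTBLC and 38 in primed, a ratio of 1.52, with an interval of 0.998 to 2.33 that includes 1. H3C8 had the lowest hTBLC pileup of the H3 genes with a peak, 31 in hTBLC and 33 in primed. Their median ratio was 1.12 over 8 genes, 5 of them above 1, and H3C6 stood at 0.99.

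H3C1 and H4C1, near one end of the first group, shared a peak that was lower in hTBLC. Its pileup was 68 in hTBLC and 110 in primed, a ratio of 0.57 (0.41 to 0.77). Its summit lay 1083 bp in hTBLC and 1062 bp in primed beyond the start site of H3C1, between the genes. That put it at position 26021534 in hTBLC and 26021513 in primed, nearer to H4C1, which spans 26021649 to 26022050. No start site was listed for H4C1, so a distance from it is not given. H3C1 and H4C1 were the members at or below a ratio of 0.667. H1-1, their neighbour at the end of the group, had 96 in hTBLC and 102 in primed, a ratio of 0.86 (0.64 to 1.15). The next genes along, H4C2 at 1.27 and H3C2 at 1.42, were on the other side of 1.

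Of the H4 genes with a ratio, 7 of 9 were above 1, and the median was 1.29. H4C5 had the highest hTBLC pileup of the H4 genes, 110 in hTBLC and 64 in primed, a ratio of 1.57 (1.14 to 2.17), with summits 123 bp before the start site in hTBLC and 115 bp before it in primed. H4C8, which starts with nearly the same promoter letters around GGTCCG, had 83 in hTBLC and 55 in primed, a ratio of 1.38 (0.97 to 1.98). H4C4 had 58 in hTBLC and 54 in primed, a ratio of 0.98 (0.67 to 1.45). H4C12, one of the near copies, had 39 in hTBLC and 24 in primed, a ratio of 1.49 (0.87 to 2.58), and its strongest summits lay 628 bp in hTBLC and 591 bp in primed beyond its start site. H4C15 had the lowest hTBLC pileup of the H4 genes with a peak, 14 in hTBLC and 33 in primed at places that did not overlap, both over 10 kb from its start site.

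The H1 genes, which encode linker histones, had the lowest median ratio of the types, 1.09 over 5 genes, 3 of them above 1. With peaks taken within 1 kb of the start site alone, their median was −0.05 on the log2 scale over 4 genes. At their start sites, H1-2 had 84 in hTBLC and 70 in primed, and H1-5 had 64 in hTBLC and 52 in primed. H1-3 had 46 in hTBLC and 33 in primed there, and H1-4 had 44 in hTBLC and 50 in primed. No interval of these start site ratios excluded 1. The strongest summit within 1 kb of H1-4, with 105 in hTBLC and 76 in primed, was the one at the H2BC5 start site. For H1-3 it lay 905 bp in hTBLC and 910 bp in primed after the start site, past the end of the gene, with 49 in hTBLC and 52 in primed.

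**Figure D2:**
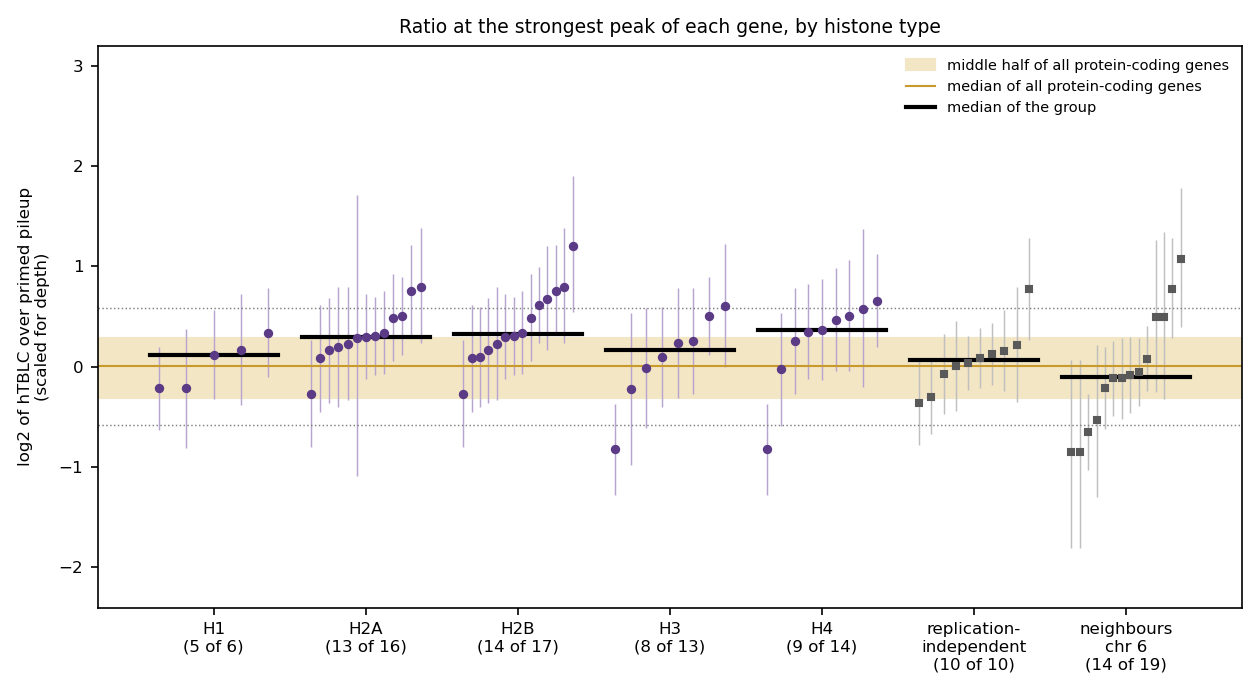
log2 of the depth-scaled ratio of hTBLC to primed pileup (vertical axis; points, genes with a ratio; bars, exact binomial 95% intervals; black lines, group medians; dotted lines, 1.5-fold) by histone type, beside replication-independent histone genes and other genes of the chromosome 6 region. The medians are 0.12 for H1, 0.30 for H2A, 0.32 for H2B, 0.16 for H3 and 0.36 for H4, against 0.01 for all protein-coding genes.

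The remaining 8 genes with a peak in both libraries had strongest peaks at different places, so no ratio is given for them. H2BC21, H2AC20 and H2AC21 on chromosome 1 had 87 in hTBLC and 72 in primed, and at the start site shared by H2BC21 and H2AC20 the ratio was 1.10 (0.80 to 1.53). H3C7 and H2BC9 had 85 in hTBLC, at a summit beyond the end of H3C7, and 55 in primed, at the start site of H2BC9. At that start site hTBLC had 44. H3C4, which is listed with the same start site as H2AC7, had 77 in hTBLC and 57 in primed. H4C11, the near copy of H4C12, had 23 in hTBLC and 19 in primed, and H4C15 is described above.

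The summits of the 5 histone types sat at different positions along the genes. Within 250 bp of the start site, 45 of 61 genes had a summit in both libraries, or 73.8%, against 66.2% of all genes. They were 16 of 17 for H2B, 13 of 15 for H2A, 5 of 6 for H1, 6 of 12 for H4 and 5 of 11 for H3. A summit between head-to-head start sites can count for both genes, so the H2A and H2B counts are not independent. The H3 count includes H3C4, whose listed start site is that of H2AC7. The ratio at these start site summits was above 1 for 36 of the 45, or 80%, against 54.4% of all genes, and at least 1.5 for 8, or 17.8%, against 11% of all genes. The median was 1.13, against 1.03 for all genes. Since head-to-head partners share summits, the 45 genes rest on fewer distinct summits, which were not counted. The strongest summit of H2B genes lay a median of 99 bp before the start site in hTBLC and 77 bp before it in primed.

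Many histone genes had another open site past their far end. A summit 0 to 500 bp beyond the gene end opposite the start site, and over 500 bp from every listed start site, was found in both libraries at 17 of 61 genes, or 27.9%, against 4.14% of all protein-coding genes. All 17 were shorter than 1 kb. The count was 8 among peaks with a −log10 q of 10 or more. The share over all genes was not computed at that cut, so whether the difference holds there was not tested. Among histone genes of that length with a start site summit in both libraries, 15 of 38 had one, or 39.5%, against 4 of 33 other genes of that kind, or 12.1%. The H1 genes had it most often, 5 of 6, followed by 4 of 12 for H4, 5 of 15 for H2A, 2 of 17 for H2B and 1 of 11 for H3. The far site was H1-2's strongest, with 95 in hTBLC, 266 bp past the gene end, and 80 in primed, 260 bp past it.

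At H1-4 the far site had 69 in hTBLC, 408 bp past the gene end, and 41 in primed, 460 bp past it, a ratio of 1.54 (1.03 to 2.32). At H1-5 it had 53 in hTBLC and 34 in primed, and at H1-1 41 in hTBLC and 57 in primed, a ratio of 0.66 (0.43 to 0.9998). The H1 genes therefore did not move one way at this site. Outside H1, the far sites of H2AC11, with 56 in hTBLC and 22 in primed, and H2AC17, with 64 in hTBLC and 29 in primed, had ratios of 2.33 (1.40 to 4.00) and 2.02 (1.28 to 3.25). H3C7 had 85 in hTBLC and 46 in primed there, a ratio of 1.69 (1.17 to 2.47). Over the 17 genes, 13 ratios were above 1, or 76.5%, against 37.6% of all genes with such a site.

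**Figure D3:**
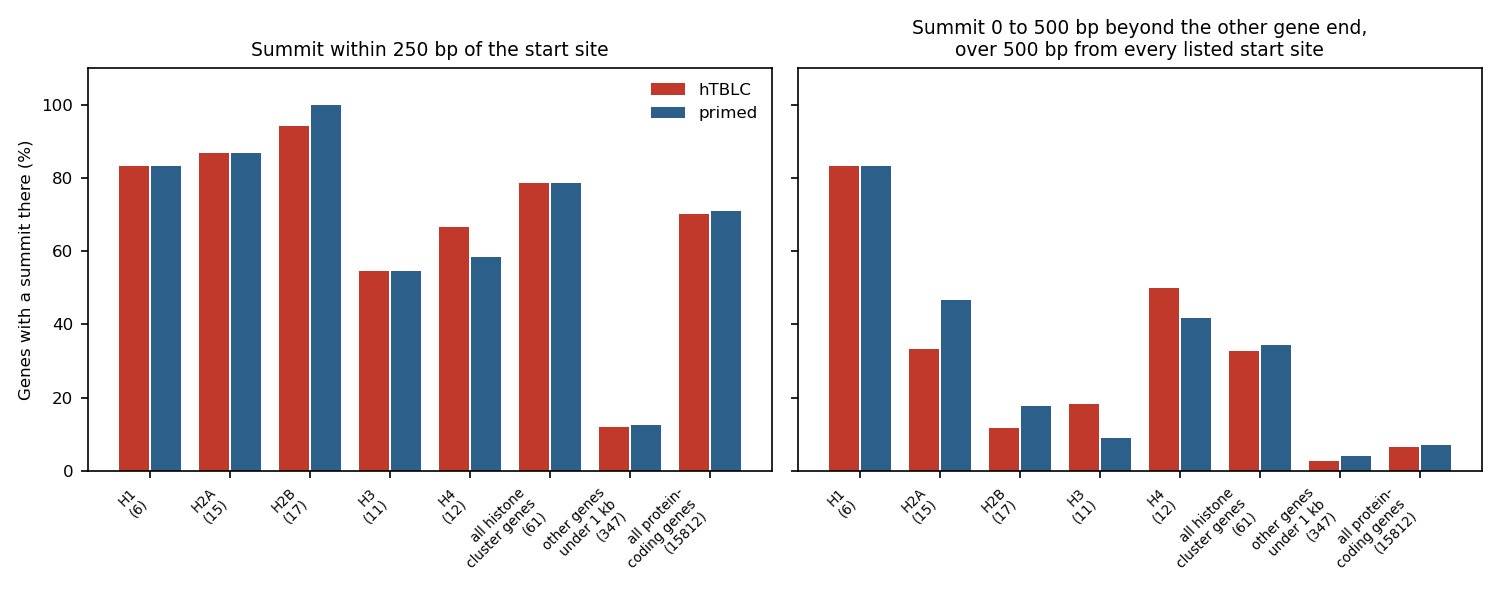
Share of genes (vertical axis, %) with a summit within 250 bp of the start site (left) and 0 to 500 bp beyond the other gene end (right), hTBLC left of primed, by histone type and for other genes; the number of genes is in brackets. In both libraries 83.3% of H1 genes have a far site, against 6.57% in hTBLC and 7.04% in primed over all protein-coding genes.

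The local background at the histone genes was high, and higher in hTBLC. The local background at the strongest peak had a median of 12.4 in hTBLC and 8.66 in primed over the histone genes with a peak, against 6.56 in hTBLC and 6.28 in primed over all genes. These medians sit at the percentiles 84.4 in hTBLC and 71.2 in primed of all genes. The pileups at the summits were not high, with medians of 77 in hTBLC and 58 in primed, against 89 in hTBLC and 86 in primed for all genes. The authors' fold enrichment over the local background was low, 6.25 in hTBLC and 6.83 in primed, against 11.8 in hTBLC and 11.9 in primed for all genes.

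The local background, like the pileups, was mostly higher in hTBLC at the histone genes. Each list was called on its own library, so pileup and background come from the same reads and are not independent. Scaled for depth, the ratio of hTBLC to primed background was above 1 for 40 of the 49 genes (81.6%), against 46% of all genes, and its median was 1.20, against 0.98 for all genes. The ratio of fold enrichments had a median of 0.996, and 23 of the 49 genes were above 1. The fold over the local background was thus about the same in hTBLC as in primed for the typical member. H2BC6 differed, since its background was 7.04 in hTBLC and 7.18 in primed while its ratio of pileups was the highest.

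The second chromosome 6 group had the higher background ratio, a median of 1.36 over 20 genes, against 1.15 over 24 genes of the first group. Their median ratios of pileups were closer, 1.23 in the second group and 1.19 in the first. The median ratio of fold enrichments was 0.93 in the second group, with 7 of 20 genes above 1. In the first it was 1.03, with 13 of 24 above 1. On chromosome 1 the median ratios of pileups were 1.07 over 3 genes of the larger group and 1.40 over the 2 genes of the pair. The highest hTBLC background of all members lay at H2AC17 and H2BC17, 19.5 in hTBLC and 13.4 in primed. At the other end of the region, H3C1 and H4C1 had 15.5 in hTBLC and 17.5 in primed, and H1-1 had 12.7 in hTBLC and 15.6 in primed. These genes therefore went the other way in background as in pileup. Background was lowest in the H4 genes, with medians of 7.14 in hTBLC and 5.76 in primed.

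**Figure D4:**
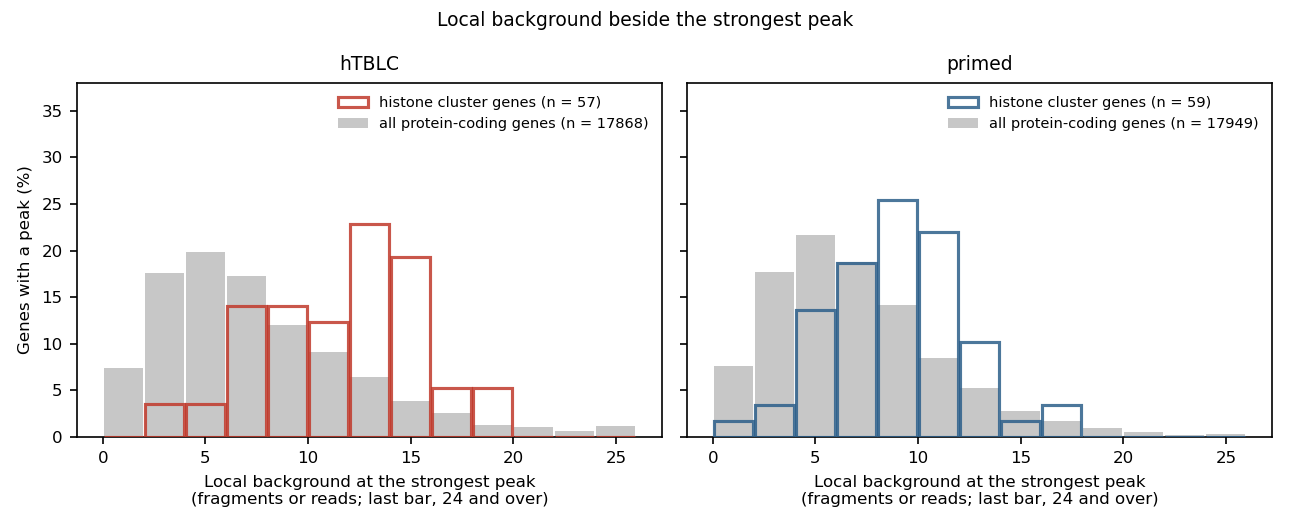
Share of genes with a peak (vertical axis, %) by the local background at their strongest peak (horizontal axis, reads or fragments), hTBLC left and primed right, for histone cluster genes (outlined) and all protein-coding genes (grey). The histone genes lie to the right of all genes in both libraries, with medians of 12.4 in hTBLC and 8.66 in primed.

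Peaks covered 52532 bp in hTBLC and 49065 bp in primed of the 206183 bp within 1 kb of the members, or 25.5% in hTBLC and 23.8% in primed. The mean pileup per summit, not scaled for depth, was 51.9 over 129 hTBLC summits and 40.8 over 126 primed summits. The second chromosome 6 group had more covered length in hTBLC, with 41.3% in hTBLC and 34.9% in primed. The first group was near even, with 27.0% in hTBLC and 27.8% in primed. Of 96 pairs of summits matched between the libraries across all members, 73 had a ratio above 1, and the median was 1.22. The values of this paragraph were not computed for the rest of the genome.

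Genes of related function had median ratios nearer 1 than the 1.23 of the cluster genes. The 10 replication-independent histone genes all had a peak in both libraries and a median ratio of 1.04. H3-3A, which encodes H3.3, stood out at 97 in hTBLC and 52 in primed, a ratio of 1.71 (1.21 to 2.44), while H3-3B, which encodes the same protein, had 117 in hTBLC and 132 in primed, a ratio of 0.81 (0.63 to 1.05). The 18 genes for histone gene transcription and mRNA end formation had a median of 1.04, and CCNE1, the cyclin E1 gene whose product activates CDK2 at the start of S phase, was the one past 1.5, with 61 in hTBLC and 27 in primed, a ratio of 2.07 (1.29 to 3.38). The gene of NPAT, the coactivator of the histone locus body, had 389 in hTBLC and 324 in primed, a ratio of 1.10 (0.94 to 1.28). The 10 histone chaperone genes had a median of 1.16, with ASF1A at 299 in hTBLC and 165 in primed, a ratio of 1.66 (1.37 to 2.02). In each of these last 2 lists the interval lay above 1 for 2 genes and below 1 for 2. Those below 1 were HINFP at 0.76 (0.62 to 0.92) and CPSF3 at 0.73 (0.57 to 0.95) among the transcription and mRNA end genes. Among the chaperones they were NASP at 0.67 (0.53 to 0.86) and CHAF1A at 0.78 (0.61 to 0.99).

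The 19 other protein-coding genes of the chromosome 6 region, among them the butyrophilin genes, had a median ratio below 1. Of these, 15 had a peak in both libraries, 5 of 14 ratios were above 1, and the median ratio was 0.93. Their local background had medians of 4.94 in hTBLC and 3.90 in primed, below those of the histone genes around them. BTN3A1 at 2.10 and ABT1 at 1.71 were past 1.5, and PRSS16 at 0.64 and POM121L2 at 0.56, which shares its peak with LOC105375107, were below 0.667. Differences between the histone genes and these sets were not tested.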

How the data were processed

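ATAC-seq peak lists of 1 hTBLC and 1 primed library of WIBR3 were used. The submitters' processing notes name Bowtie2, Picard, MACS2 and hg38, and no version, role or setting. Calling thresholds, duplicate handling and read placement at repeated sequence are not stated in any source used here. Each list was called on its own library.

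The authors deposited for every peak its position, a score, a fold ratio of summit to local background, a −log10 p-value and a −log10 q-value. The deposited score repeats the −log10 p and was not used. The authors' fold and −log10 p were solved for a whole pileup and a background: 1 was added to both before the fold was taken, and p was a Poisson tail probability. This gave whole pileups for 99.998% of hTBLC and 99.999% of primed peaks within 0.001 in −log10 p. The authors' −log10 q-value was used as a filter in alternatives.

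A gene's strongest peak is the one of highest pileup within 1 kb of the gene in RefSeq GRCh38.p14. A ratio is given where both libraries' strongest peaks overlap by at least 1 bp, with an exact binomial 95% interval, and shares have Wilson 95% intervals. The lowest background is the measure of depth, because read totals were not used here. Members and lists were chosen with earlier results of these data known. Named genes are all members without a peak in 1 or both libraries, the highest and lowest pileup per histone type, the 10 highest and 10 lowest ratios, H1-6, and list members past 1.5-fold. H2AC1 and H2BC1, which that rule also names, lie outside the region. Some items were named after their values were seen: the far sites, H3-3B, NPAT, COL1A1, HINFP, CPSF3, NASP, CHAF1A and the motifs GGTCCG and AAACACA. The steps were tested on simulated peaks. Python 3.11.15, numpy 2.4.6, pandas 2.3.3, scipy 1.17.1 and matplotlib 3.10.9 were used.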

Additional observations from a re-analysis of the deposited data

How the results depend on the processing

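Alternatives were stricter peak lists (−log10 q of 5 or more, 10 or more), a common lowest −log10 p, windows of 500 or 2500 bp, overlap of 50%, 1 gene per peak pair, no scaling and the median of all genes set to 1. Windows around start sites, summits at most 200 bp apart, the first chromosome 1 group left out, genes under 1 kb alone and all alternatives for the position counts were added after the data were seen. Of the main values under these alternatives, 119 planned and 60 added ones were counted as close to the reported value. That count was wide for medians. The H1 median went from 0.12 to −0.05 on the log2 scale, with a change of sign, and still counted as close. The count therefore cannot show that a median was stable. The median log2 ratio of all members ran from 0.25 to 0.43. Genes with a peak in hTBLC alone numbered 1 when −log10 q was 5 or more, 5 when it was 10 or more and 2 in the 2500 bp window. In the same order these were 1.52%, 7.58% and 3.03% of the histone genes and 1.34%, 1.77% and 1.43% of all genes. Genes with a ratio of at least 1.5 numbered 5 of 42 when −log10 q was 10 or more and 16 of 49 without scaling. In the same order these were 11.9% and 32.7% of the histone genes with a ratio, against 7.9% and 14.035% over all genes. Genes with a ratio of at most 0.667 numbered 1 in the 2500 bp window, 1 with 1 gene per peak pair and 1 in the start site window. Over all genes this share was 12.1% in the 2500 bp window and 11.4% in the start site window. Genes with a far site in both libraries numbered 8 when −log10 q was 10 or more and 7 in windows of 100 and 250 bp, in which start site summits in both numbered 24. For these position counts no share over all genes was computed. The cause of these differences was not tested. Without scaling, the median log2 ratio was 0.43 for the histone genes and 0.14 for all genes, and 85.7% of histone genes and 61.3% of all genes were above 1. The median of the H1 genes was −0.05 on the log2 scale in the start site window, which dropped to 4 genes, and 0.25 without scaling. The ratio of H2AC4 was 0.95 and that of H4C13 2.86 in the 500 bp window. No paired analysis was possible because each group has 1 library. Depth limits single genes, since most intervals include 1.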

Other observations

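Of 8 histone genes with like names outside the rule, several of them known from germ cells, 2 had a peak in both libraries, 1 in primed alone and 5 in neither. H2AC1, H2BC1, H3-4, H1-7 and H2BC12L had no peak within 1 kb in either library. H1-8, which encodes the oocyte linker histone, had a pileup of 68 in hTBLC and 22 in primed, at places that did not overlap, so no ratio is given. H3Y1, a primate-specific H3 gene, had no peak in hTBLC and a pileup of 18 in primed. H4C16, which lies alone on another chromosome, had 122 in hTBLC and 140 in primed, a ratio of 0.80 (95% interval 0.62 to 1.02).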
